A study of Mus musculus with 6 samples.

Results

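The healthy mesenchyme gate was set against the healthy endothelia gate of mouse kidney. A gate is the sorting window through which a cell reached its well. Members were the wells whose layout label names the mesenchyme or the endothelia gate of an uninjured mouse, kept where a well held at least 1000 detected genes and 20000 reads on genes. This left 364 of 372 mesenchyme wells and 380 of 384 endothelia wells, together 744 of the 2235 kept wells of the series. Kidneys were digested with enzymes, single cells were sorted into wells, and Smart-seq2 libraries, which cover transcripts over their whole length, were sequenced from 1 cell per well. The 6 plates each combine 3 conditions from 3 mice: uninjured, and day 2 and day 10 after unilateral ureteric obstruction (UUO, in which 1 ureter is tied off). The healthy mice gave both gates and are labelled uninjured, and the labels give no strain, age, sex or genotype and no stain or reporter for the gates. The layout numbers the cells of a condition from 1 to 4, which is taken here to mark the mouse, and numbers 1 and 4 each run over 2 plates. Counts were summed per number and gate, which gave 4 mesenchyme sums and 4 endothelia sums paired by number (n = 4 pairs throughout).

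Blood vessels of the kidney have an inner layer of endothelial cells and an outer layer of mural cells. Mural cells comprise the smooth muscle of arteries and arterioles, the pericytes of capillaries, the mesangial cells of the glomerulus and the renin cells of the afferent arteriole, and interstitial fibroblasts are the other main mesenchymal type. Endothelial cells release nitric oxide, endothelin and PDGF-B toward mural cells, which carry the matching receptors, contract, relax and lay down matrix.

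The mesenchyme sums of numbers 1 to 4 held 120, 61, 61 and 122 wells with 39928927, 21703231, 20794573 and 42619147 reads on genes. The endothelia sums held 126, 64, 64 and 126 wells with 42799992, 23351964, 21981703 and 40212066 reads. The median kept well had 355733 reads in the mesenchyme gate and 353766.5 reads in the endothelia gate. On every plate the mesenchyme gate filled plate columns 1 to 4 and the endothelia gate columns 5 to 8, so gate and plate columns cannot be told apart. In sums of cells, fewer cells of a type and less RNA per cell cannot be told apart either. Median genes detected per well were 3223.5, 3134, 3389 and 3422 in the mesenchyme gate, against 2943, 2901.5, 2580.5 and 2647 in the endothelia gate. The mesenchyme gate was higher in all 4 pairs, by 524 ± 310 genes (SD of pairs), and an exact two-sided sign-flip permutation test gave p = 0.125, the smallest that 4 pairs allow. Gene reads per read of the 92 ERCC spike-in RNAs, a measure of RNA per well, were higher in the mesenchyme gate by 0.40 ± 0.35 on the log2 scale (SD of 4 pairs), with p = 0.125 in the same exact test.

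The markers of the 2 gates separated them. Pecam1, an adhesion molecule of endothelial junctions, stood at 1.92, 0.648, 0.522 and 0.794 CPM (reads of a gene relative to all gene reads of its sum, with TMM, a correction for library composition) in the mesenchyme sums of numbers 1 to 4, against 2619.8, 2522, 2051 and 2168 CPM in the endothelia sums. Cdh5, the VE-cadherin of those junctions, stood at 0.240, 0.139, 0.949 and 0.136 CPM in the mesenchyme gate, against 664, 514, 563 and 618 CPM in the endothelia gate. The gates did not overlap for either gene. Pecam1 lies at chr11:106654213-106715281 and Cdh5 at chr8:104101613-104144504 (RefSeq, GRCm38.p6). Their log2 fold changes, mesenchyme over endothelia with SE, were -11.38 ± 0.42 (adjusted p = 0.000125) and -11.02 ± 0.67 (adjusted p = 0.000353) by edgeR's quasi-likelihood test with Benjamini-Hochberg adjustment, which gave the adjusted p-values throughout.

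Pdgfrb, the PDGF receptor of mural cells and fibroblasts, had 1058, 826, 1032 and 962 CPM in the mesenchyme gate, against 7.90, 4.10, 0.280 and 1.67 CPM in the endothelia gate (8.67 ± 0.93, adjusted p = 0.00196). Acta2, the smooth muscle actin (chr19:34240336-34255585), had 23898, 23910.2, 24256 and 21458 CPM in the mesenchyme gate, against 76.0, 624, 50.7 and 43.2 CPM in the endothelia gate (7.99 ± 0.84, adjusted p = 0.00181). The gates did not overlap for either gene, and the endothelia sum of number 2 was the highest of its gate for Acta2. The count tables also hold an entry named eGFP, the green fluorescent protein, although the labels name no reporter. It had 450.4, 400.4, 743 and 474 CPM in the mesenchyme gate, against 3.58, 7.20, 5.13 and 5.52 CPM in the endothelia gate (6.59 ± 0.34, adjusted p = 0.000254).

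**Figure D1:**
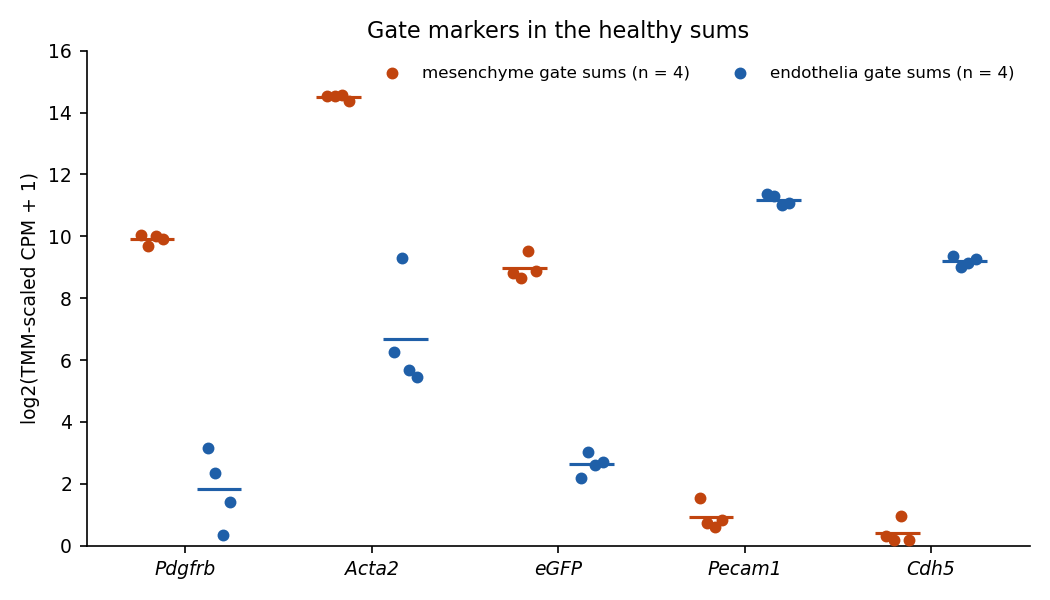
Expression of the gate markers and eGFP in each sum. The y axis is log2 of TMM-scaled CPM plus 1, points are the 4 mesenchyme sums (left of each pair) and the 4 endothelia sums (right), and bars are means. The gates stand apart for all 5 entries, and the endothelia sum of number 2 lies above the other endothelia sums for Acta2 at 624 CPM.

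Well by well, Pdgfrb reached 10 CPM in 356 of 364 mesenchyme wells and 13 of 380 endothelia wells, and eGFP in 346 of 364 mesenchyme wells and 25 of 380 endothelia wells. Pecam1 reached it in 6 of 364 mesenchyme wells and 372 of 380 endothelia wells, and no mesenchyme well held both Pecam1 and Cdh5 at that level, against 359 endothelia wells. Acta2 crossed the gates most often of the 4 markers: it reached 10 CPM in 358 of 364 mesenchyme wells and in 100 of 380 endothelia wells, of which 91 also had Pecam1 and Cdh5. The 13 endothelia wells with Pdgfrb were spread as 8, 2, 0 and 3 over numbers 1 to 4. Leaving them out took Myh11, the smooth muscle myosin heavy chain, to 2.32 CPM in the endothelia sum of number 2, against 105.3 CPM with all of its wells, both without TMM scaling. Acta2 came to 21.3 CPM in that sum without those 2 wells, against 612.8 CPM with them.

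Markers of other cell types were summed over each list in CPM without TMM scaling, and their part in the results was not tested. The 8 proximal tubule markers ranged from 182.2 to 2021 CPM in the mesenchyme gate and from 5.14 to 2141 CPM in the endothelia gate. At least 3 of them reached 10 CPM in 110 of 364 mesenchyme wells and 123 of 380 endothelia wells. The 4 markers of loop of Henle and distal tubule ranged from 41.0 to 1030 CPM in the mesenchyme gate and from 68.7 to 1332 CPM in the endothelia gate. The 5 podocyte markers ranged from 727 to 2469 CPM in the mesenchyme gate and from 141 to 464 CPM in the endothelia gate, and the 5 parietal epithelium markers from 95.3 to 468 CPM in the mesenchyme gate and from 0.557 to 47.2 CPM in the endothelia gate. The 7 leukocyte markers found in the tables ranged from 5.25 to 22.2 CPM in the mesenchyme gate, where Cd3e was at 0, and from 28.8 to 44.1 CPM in the endothelia gate. Of the 4 red cell markers found in the tables, Hba-a1, Hba-a2 and Hbb-bs were at 0 in both gates.

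Of 13572 genes tested, 2612 (19.2%) passed an adjusted p of 0.05, 1312 (9.67%) higher and 1300 (9.58%) lower in the mesenchyme gate. At 4-fold or more, 878 (6.47%) were higher and 758 (5.59%) lower. The median log2 fold change over all genes tested was 0.01, over the genes called higher 3.67 and over those called lower -2.46. Of the genes called, 17 higher ones had no read in the endothelia gate and 19 lower ones had none in the mesenchyme gate. The 4 mesenchyme sums all lay above the 4 endothelia sums for 15.2% of the genes tested and all below them for 14.2%. Fewer genes passed with 3 pairs, 1576 without number 1 and 1546 without number 4, and DESeq2 called 4612. Against a 2-fold change 1509 passed.

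Genes of largest change on the mesenchyme side had varied roles. Rgs4, a regulator of G protein signalling, had 991, 1134, 474 and 832 CPM in the mesenchyme sums, against 0.447, 0.567, 0.140 and 0.646 CPM in the endothelia sums (10.93 ± 0.34, adjusted p = 0.000111). Olfr78, an olfactory receptor found in renal vessels, had 185, 400.1, 126 and 158 CPM in the mesenchyme sums, against 0.0745, 0.131, 0.0466 and 0.0249 CPM in the endothelia sums (11.57 ± 0.34, adjusted p = 0.000111). Both were far apart in all 4 pairs. Tmeff2, a transmembrane protein with follistatin-like domains, averaged 94.3 ± 20.5 CPM in the mesenchyme gate and 0.0544 ± 0.0656 CPM in the endothelia gate.

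For 5 more the endothelia gate held only 1 to 3 reads in all, and the ratio of the gates' pooled CPM is given. Mrgprh, an orphan receptor of the Mas-related family, had a ratio of mesenchyme over endothelia of 10405 (95% counting interval 1867 to 410996). The ratio was 4673 (95% counting interval 1599 to 22663) for Vstm4, an immunoglobulin-domain membrane protein, and 4346 (95% counting interval 1487 to 21076) for Rbm24, a muscle splicing regulator. It was 2707 (95% counting interval 926 to 13129) for Ptgir, the prostacyclin receptor, and 3465 (95% counting interval 1185 to 16805) for Cldn1, a tight junction claudin. Adjusted p ranged from 0.000296 for Mrgprh to 0.000586 for Cldn1. Cldn1 differed from the others in its spread over cells: it reached 10 CPM in 25 of 364 mesenchyme wells, of which 19 also had Pax8, a transcription factor of renal epithelium. Rbm24 reached that level in 160 of 364 and Mrgprh in 128 of 364 mesenchyme wells.

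On the endothelia side the largest changes included Sox17, an arterial transcription factor, with 0.0959, 0.185, 0.142 and 0.113 CPM in the mesenchyme sums, against 333, 596, 686 and 558 CPM in the endothelia sums (-11.94 ± 0.28, adjusted p = 8.43e-05). Robo4, the endothelial Roundabout receptor, had 0.192, 0.139, 0.0949 and 0.136 CPM in the mesenchyme sums, against 438, 256, 669.9 and 539 CPM in the endothelia sums (-11.61 ± 0.41, adjusted p = 0.000125). Gimap5, a GTPase of the immunity-associated family, averaged 0.110 ± 0.0866 CPM in the mesenchyme gate and 405 ± 119.5 CPM in the endothelia gate. The gates did not overlap for any of these. Palmd, palmdelphin, averaged 0.0589 ± 0.0606 CPM in the mesenchyme gate and 230.3 ± 50.7 CPM in the endothelia gate, Ccm2l, a relative of the cerebral cavernous malformation protein, 0.0286 ± 0.0342 CPM in the mesenchyme gate and 109.8 ± 19.5 CPM in the endothelia gate, and Lrrc3b 0.0700 ± 0.0888 CPM in the mesenchyme gate and 225 ± 43.4 CPM in the endothelia gate. The mesenchyme gate held only 1 to 3 reads in all of Srms, a kinase related to Src, of the receptor transporter Rtp3, of the tripartite motif protein Trim16 and of the glycosyltransferase B3gnt3. Their ratios of endothelia over mesenchyme were 9732 (95% counting interval 1746 to 384438), 7204 (95% counting interval 1994 to 59494), 5768 (95% counting interval 1973 to 27973) and 4233 (95% counting interval 1171 to 34957), with adjusted p from 0.000254 for Srms to 0.000296 for B3gnt3.

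**Figure D2:**
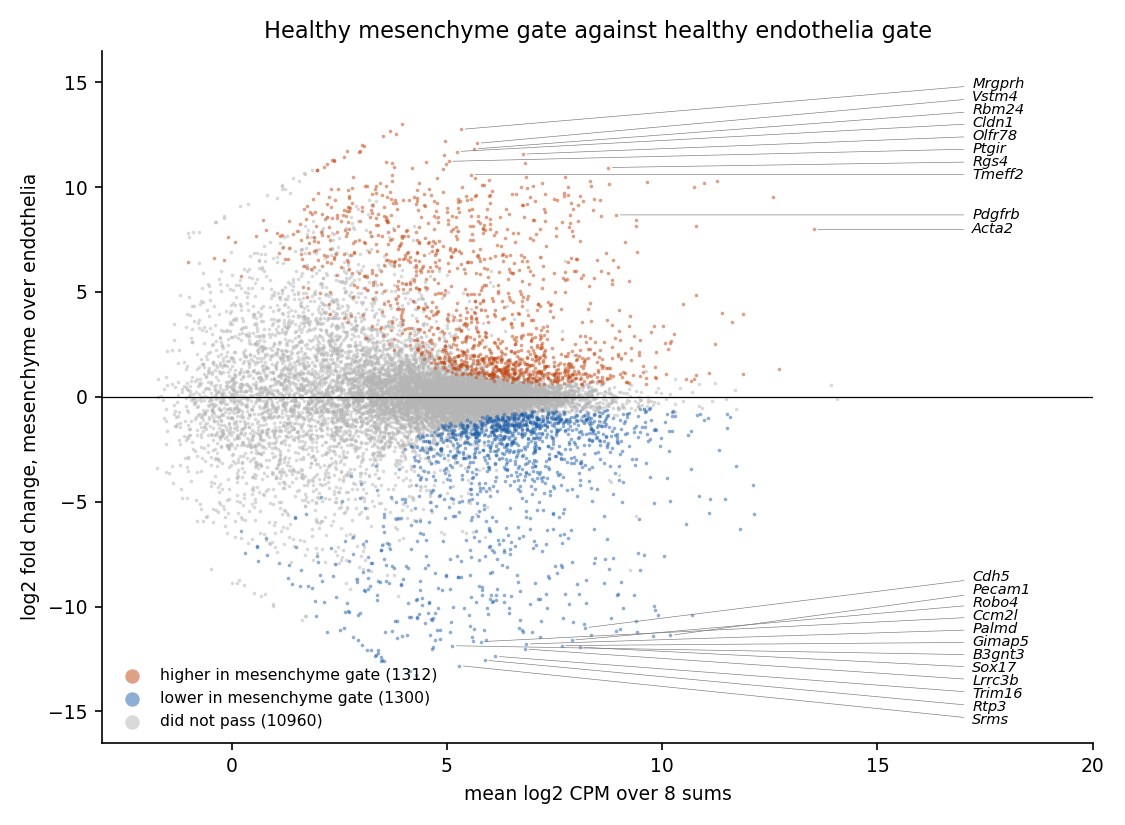
Log2 fold change, mesenchyme over endothelia, against mean log2 CPM for the 13572 genes tested. Coloured points passed an adjusted p of 0.05 (1312 higher, 1300 lower), grey points did not, and the 4 gate markers and the genes named for their size of change are labelled.

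All 19 tested genes of the contractile apparatus were higher in the mesenchyme gate and none lower, against 9.67% of all genes tested, with a median log2 fold change of 4.83. Myh11 had 4871, 5482, 4393 and 4923 CPM in the mesenchyme sums, against 3.23, 107, 0.979 and 1.91 CPM in the endothelia sums (10.30 ± 1.45, adjusted p = 0.00495). Tagln, the actin-binding transgelin, had 3287, 3198, 4471 and 3064 CPM in the mesenchyme sums, against 9.12, 131, 7.93 and 4.60 CPM in the endothelia sums (8.15 ± 1.06, adjusted p = 0.00381). Without the endothelia wells that carry Pdgfrb, the log2 fold change was 11.36 for Myh11 and 9.12 for Tagln. The smallest p in the list belonged to genes that endothelial cells held too: Flna, an actin crosslinker, averaged 7107 ± 421 CPM in the mesenchyme gate and 473 ± 96.0 CPM in the endothelia gate (3.93 ± 0.17, adjusted p = 0.000162). Mylk, the myosin light chain kinase, averaged 2740.2 ± 187 CPM in the mesenchyme gate and 134 ± 51.5 CPM in the endothelia gate, Tpm1, a tropomyosin, 3401 ± 127 CPM in the mesenchyme gate and 129 ± 58.3 CPM in the endothelia gate, and Myl6, the light chain shared by muscle and other cells, 693 ± 88.5 CPM in the mesenchyme gate and 113 ± 14.0 CPM in the endothelia gate. Myocd, the coactivator of serum response factor in smooth muscle, averaged 128 ± 38.8 CPM in the mesenchyme gate and 0.828 ± 1.10 CPM in the endothelia gate (8.002 ± 0.95, adjusted p = 0.00281).

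Serum response factor, which myocardin works through, binds CArG boxes. CC, then any 6 bases of A or T, then GG was searched on both strands of the 250 bases before each RefSeq gene start (GRCm38.p6). It occurred before 143 of 10146 tested genes with a promoter (1.41%), before 20 of 625 genes at least 4-fold higher (3.20%) and before 9 of 551 at least 4-fold lower (1.63%). Of 17 contractile genes with a promoter it occurred before Myl9, Myl6 and Vcl. Their upstream stretches are shown because each holds 1 match, in capitals, at chr2:156775214-156775463 (plus strand), chr10:128493010-128493259 (minus strand, the second of 2 RefSeq starts) and chr14:20929148-20929397 (plus strand), written 5′ to 3′ on the gene's strand. A match is a description of these letters, not of a bound site.
Myl9 upstream: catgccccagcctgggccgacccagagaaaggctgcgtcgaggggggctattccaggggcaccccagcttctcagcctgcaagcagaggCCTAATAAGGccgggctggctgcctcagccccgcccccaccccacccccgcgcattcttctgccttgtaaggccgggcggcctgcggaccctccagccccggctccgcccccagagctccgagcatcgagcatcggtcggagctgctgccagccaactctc
Myl6 upstream: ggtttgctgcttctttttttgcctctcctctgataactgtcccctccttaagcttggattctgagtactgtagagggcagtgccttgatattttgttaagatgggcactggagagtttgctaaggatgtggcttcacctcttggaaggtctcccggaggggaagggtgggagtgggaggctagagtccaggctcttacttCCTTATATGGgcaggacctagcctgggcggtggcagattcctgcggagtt
Vcl upstream: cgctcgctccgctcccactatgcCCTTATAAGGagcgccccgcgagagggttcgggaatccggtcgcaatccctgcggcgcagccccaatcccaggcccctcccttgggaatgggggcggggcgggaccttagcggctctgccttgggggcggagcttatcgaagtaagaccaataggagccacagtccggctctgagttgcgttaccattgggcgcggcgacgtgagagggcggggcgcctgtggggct
Myl9, the regulatory light chain of smooth muscle myosin, had 12346, 12024, 12728 and 11385 CPM in the mesenchyme sums, against 7.40, 344, 12.1 and 7.46 CPM in the endothelia sums (9.52 ± 1.32, adjusted p = 0.00469). Vcl, vinculin of focal adhesions, had 659.6, 592, 383 and 451 CPM in the mesenchyme sums, against 138, 101.7, 48.5 and 169.7 CPM in the endothelia sums (2.30 ± 0.29, adjusted p = 0.00339). Counted from the start at which its window ends, the match began 161 bases before Myl9, 50 before Myl6 and 227 before Vcl. For Myl9 and Vcl the windows run past the gene's first base in the RefSeq positions, chr2:156775408 and chr14:20929383. The Myl6 window shown lies wholly inside the gene, whose first base on the minus strand is chr10:128493886. The window before the other RefSeq start of Myl6 held no match.

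Of 20 tested genes of mural ion channels and calcium handling, 17 were higher and 1 lower, against 9.67% higher and 9.58% lower of all genes tested, with a median log2 fold change of 6.49. Abcc9, the regulatory subunit of the vascular ATP-sensitive potassium channel, had 53.7, 102.4, 110.1 and 124 CPM in the mesenchyme sums, against 0.472, 0.436, 0.140 and 0.298 CPM in the endothelia sums (8.13 ± 0.60, adjusted p = 0.000610). Cacna1c, the pore of the L-type calcium channel, averaged 171 ± 20.8 CPM in the mesenchyme gate and 3.08 ± 2.07 CPM in the endothelia gate (6.07 ± 0.47, adjusted p = 0.000669). Kcna5, a voltage-gated potassium channel, averaged 243 ± 105 CPM in the mesenchyme gate and 0.729 ± 1.23 CPM in the endothelia gate. Atp2a2, the calcium pump of the endoplasmic reticulum, was higher by less (2.60 ± 0.23, adjusted p = 0.000998). The store-operated channel gene Orai1 was the 1 lower member (-2.65 ± 0.39, adjusted p = 0.00599), and its partner Stim1, the calcium sensor, was higher (2.14 ± 0.22, adjusted p = 0.00161). Of those that did not pass, Ryr2, a calcium release channel, stayed under 4 CPM in every sum (-1.48 ± 1.55, adjusted p = 0.575).

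The endothelin A receptor and the nitric oxide receptor were called higher in the mesenchyme gate, and endothelin 1 and the endothelial nitric oxide synthase lower, while the endothelin B receptor did not pass. Of 29 tested vasoactive receptors, 13 were higher, 6 lower and 10 did not pass (median 3.23). Of 17 ligands and enzymes, 9 were higher, 5 lower and 3 did not pass (median 2.18). Of all genes tested, 9.67% were higher and 9.58% lower. Ednra, the endothelin A receptor, had 306, 349, 229.9 and 297 CPM in the mesenchyme sums, against 0.472, 0.0436, 0 and 0.597 CPM in the endothelia sums (10.21 ± 0.88, adjusted p = 0.000967). Edn1, its ligand endothelin 1, had 3.57, 0.0925, 0 and 0.250 CPM in the mesenchyme sums, against 133, 401, 289 and 283 CPM in the endothelia sums (-9.64 ± 1.54, adjusted p = 0.00769). The gates did not overlap for either and stood in opposite orders. Ece1, the endothelin converting enzyme, averaged 36.9 ± 11.8 CPM in the mesenchyme gate and 884 ± 118 CPM in the endothelia gate (-4.63 ± 0.32, adjusted p = 0.000502). Ednrb, the endothelin B receptor, had 183, 383, 101 and 308 CPM in the mesenchyme gate, against 829.7, 453, 353 and 468 CPM in the endothelia gate (-1.21 ± 0.37, adjusted p = 0.0707), and its adjusted p was 0.0387 without number 2 (range over all alternatives 0.0100 to 0.462).

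The nitric oxide pathway was divided in the same way. Nos3, the endothelial nitric oxide synthase, had 0.360, 2.41, 1.42 and 0.386 CPM in the mesenchyme sums, against 247, 363, 434 and 258 CPM in the endothelia sums (-8.53 ± 0.53, adjusted p = 0.000354). Gucy1a3 and Gucy1b3, the subunits of its receptor, soluble guanylate cyclase, averaged 506 ± 98.0 and 285 ± 59.0 CPM in the mesenchyme gate, against 8.40 ± 7.33 and 2.19 ± 2.37 CPM in the endothelia gate. Prkg1, the cGMP-dependent kinase, averaged 197 ± 55.5 CPM in the mesenchyme gate and 18.9 ± 7.19 CPM in the endothelia gate (3.42 ± 0.21, adjusted p = 0.000354), and Pde3a, a phosphodiesterase, 211 ± 32.6 CPM in the mesenchyme gate and 8.19 ± 3.49 CPM in the endothelia gate (4.77 ± 0.31, adjusted p = 0.000407). All 4 cGMP genes were higher in the mesenchyme gate. Npr1, the natriuretic peptide receptor, had 231 ± 45.9 CPM in the mesenchyme gate and 249 ± 21.4 CPM in the endothelia gate (-0.12 ± 0.19, adjusted p = 0.714).

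Agtr1a, the angiotensin II type 1a receptor, had 726, 634, 564 and 668 CPM in the mesenchyme sums, against 3.01, 0.349, 0.233 and 0.373 CPM in the endothelia sums (10.07 ± 0.77, adjusted p = 0.000650). Ren1, renin, had 70.3, 17.8, 32.8 and 24.1 CPM in the mesenchyme sums and 3 reads in all in the endothelia gate, a ratio of 1736 (95% counting interval 594 to 8419). Ren1 reads may in part be those of its near-identical copy Ren2. The number 1 mesenchyme sum was the highest for renin. Tbxa2r, the thromboxane receptor, was lower, with 62.3, 32.5, 61.3 and 56.5 CPM in the mesenchyme gate, against 358, 229.6, 402 and 333 CPM in the endothelia gate (-2.65 ± 0.18, adjusted p = 0.000415). S1pr3 and S1pr1, receptors of sphingosine 1-phosphate, took opposite sides. S1pr3 averaged 1586 ± 195 CPM in the mesenchyme gate and 11.5 ± 21.6 CPM in the endothelia gate (10.26 ± 1.65, adjusted p = 0.00783), and S1pr1 3.23 ± 4.69 CPM in the mesenchyme gate and 1007 ± 198 CPM in the endothelia gate (-9.40 ± 1.08, adjusted p = 0.00247).

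The receptor-activity-modifying proteins, which set whether Calcrl binds CGRP or adrenomedullin, were divided as well. Ramp1, which makes the CGRP receptor, was higher in the mesenchyme gate at 229.6 ± 27.0 CPM, against 1.31 ± 2.53 CPM in the endothelia gate (9.93 ± 1.52, adjusted p = 0.00669). Ramp2 and Ramp3, which make adrenomedullin receptors, were lower at 6.13 ± 6.85 and 0.635 ± 0.511 CPM, against 859 ± 101 and 262 ± 41.6 CPM in the endothelia gate (-8.23 and -8.89 on the log2 scale). Calcrl was lower by less (-1.59 ± 0.16, adjusted p = 0.00176), and Adm, adrenomedullin, did not pass (-1.21 ± 0.59, adjusted p = 0.223). Ptgs2, the inducible cyclooxygenase, had no read in the mesenchyme gate and 22.6, 45.9, 5.13 and 11.1 CPM in the endothelia gate, which is at least 201-fold lower with a floor of 3 reads per sum. Ptgs1, the constitutive form, had 0.0474 to 16.7 CPM in the mesenchyme gate and 65.1 to 194 CPM in the endothelia gate (-4.46 ± 1.31, adjusted p = 0.0622), and its adjusted p was 0.0219 without number 3 and 0.0243 without the block (range over all alternatives 3.24e-05 to 0.185).

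**Figure D3:**
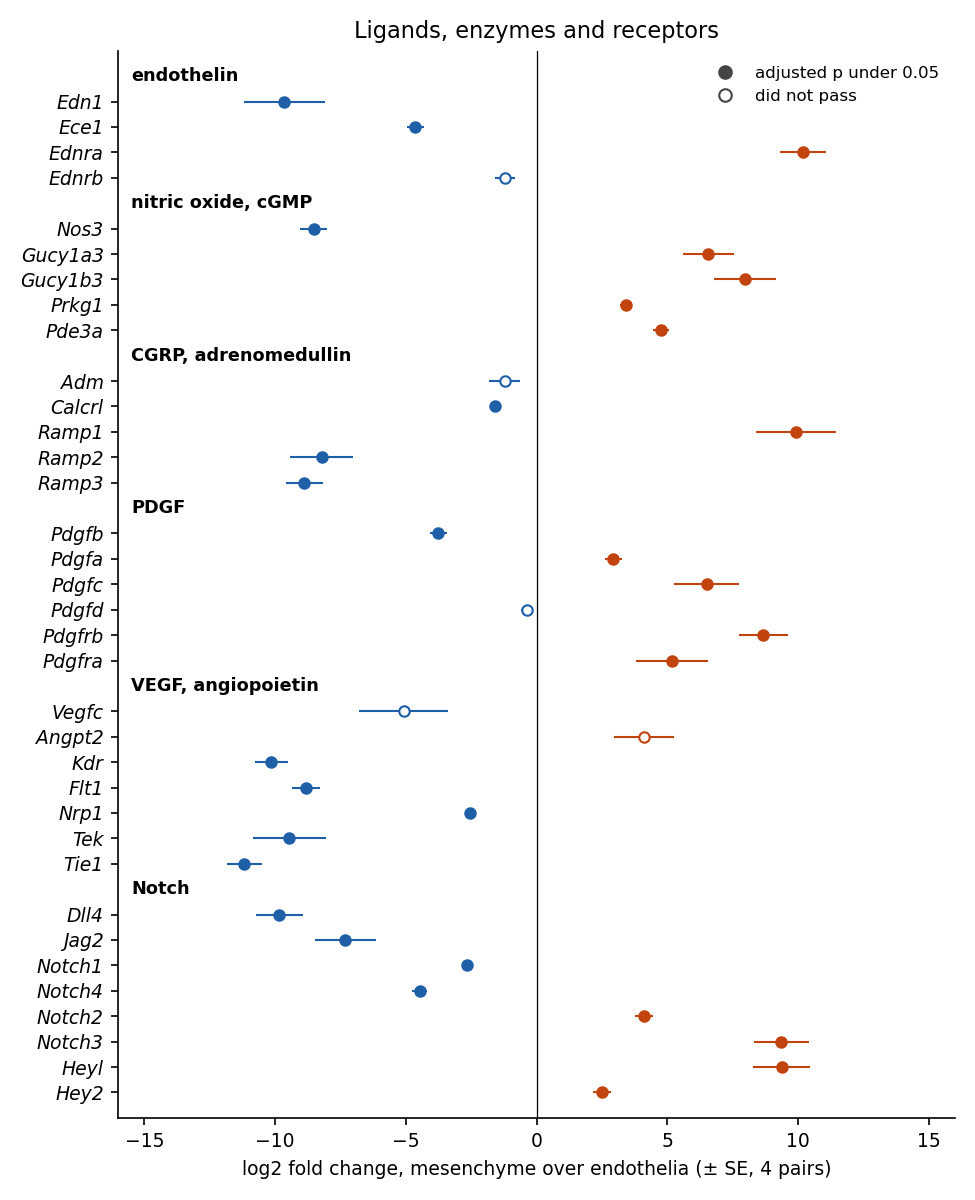
Log2 fold change, mesenchyme over endothelia, with SE for chosen ligands, enzymes and receptors of 6 signalling systems. Vegfa, Vegfb and Angpt1, which did not pass, are not shown. Filled points passed an adjusted p of 0.05 and open points did not, and Edn1, Nos3, Pdgfb and Dll4 lie below 0 while Ednra, Gucy1a3, Pdgfrb and Notch3 lie above it.

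Growth factor axes between the cell types were divided only in part. Of 7 PDGF genes, 5 were higher and 1 lower (median 5.18), against 9.67% and 9.58% of all genes tested. Pdgfb, the ligand of Pdgfrb, was lower, with 19.3, 13.1, 9.87 and 21.8 CPM in the mesenchyme gate, against 193, 229, 231 and 181 CPM in the endothelia gate (-3.76 ± 0.33, adjusted p = 0.00103). Pdgfa, another ligand, was higher, with 227, 203, 205 and 133 CPM in the mesenchyme gate, against 16.55, 22.3, 34.6 and 27.9 CPM in the endothelia gate (2.94 ± 0.32, adjusted p = 0.00192). Pdgfc, which signals through Pdgfra, averaged 55.4 ± 10.5 CPM in the mesenchyme gate and 0.920 ± 1.02 CPM in the endothelia gate (6.52 ± 1.24, adjusted p = 0.0147), and its adjusted p was 0.0514 without number 3 and 0.0680 without number 4 (range over all alternatives 1.06e-11 to 0.0680). Pdgfd had 89.2 ± 37.4 CPM in the mesenchyme gate and 111 ± 19.8 CPM in the endothelia gate (-0.38 ± 0.23, adjusted p = 0.312). Pdgfra, the receptor of fibroblasts, passed at an adjusted p of 0.0468, which was 0.0596 without number 1, 0.0598 without number 2, 0.128 without number 3, 0.121 without number 4 and 0.0622 without the block (range over all alternatives 8.36e-07 to 0.128). Without number 3 or number 4, 2 of the 7 genes were higher and 1 lower.

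Of 16 genes of the VEGF and angiopoietin axis, 3 were higher and 8 lower (median -2.18), against 9.67% and 9.58% of all genes tested. The ligands Figf and Pgf were higher, while the ligands Vegfa, Vegfb, Vegfc, Angpt1 and Angpt2 did not pass. Kdr, the main VEGF receptor, had 0.839, 1.20, 4.36 and 1.36 CPM in the mesenchyme sums, against 2345, 1380.0, 1661 and 1854 CPM in the endothelia sums (-10.14 ± 0.63, adjusted p = 0.000354). Flt1, the other VEGF receptor of endothelium, had 5.27, 1.99, 1.61 and 1.497 CPM in the mesenchyme sums, against 1069, 639, 1111 and 1423 CPM in the endothelia sums (-8.81 ± 0.53, adjusted p = 0.000350). Both were lower in all 4 pairs. Tie1 and Tek, the Tie receptors, averaged 0.444 ± 0.286 and 10.9 ± 19.9 CPM in the mesenchyme gate, against 967 ± 95.4 and 1281 ± 235 CPM in the endothelia gate. Tek was highest in the mesenchyme sum of number 1. Nrp1, a VEGF and semaphorin coreceptor, was lower by less, with 945, 658, 599.6 and 796 CPM in the mesenchyme gate, against 5553, 3745, 4156 and 3838 CPM in the endothelia gate (-2.53 ± 0.16, adjusted p = 0.000385). Angpt2, a Tie2 ligand, had 236, 193, 255 and 152 CPM in the mesenchyme gate, against 8.65, 0.480, 41.5 and 36.4 CPM in the endothelia gate (4.12 ± 1.14, adjusted p = 0.0528), with an adjusted p of 0.0212 without number 2 and 0.0358 without the block (range over all alternatives 4.52e-06 to 0.172). Vegfc had 0 to 6.16 CPM in the mesenchyme gate and 25.4 to 201 CPM in the endothelia gate (-5.09 ± 1.72, adjusted p = 0.0934), with an adjusted p of 0.0185 without the block (range over all alternatives 9.64e-05 to 0.265).

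Of 16 Notch pathway genes, receptors, ligands, modifiers and targets together, 6 were higher and 6 lower (median -0.02). The shares of all genes tested were 9.67% and 9.58%. Notch2 and Notch3 were higher in the mesenchyme gate. Notch2 averaged 314 ± 44.4 CPM in the mesenchyme gate and 20.01 ± 11.5 CPM in the endothelia gate (4.11 ± 0.35, adjusted p = 0.000967), and Notch3 755 ± 99.9 CPM in the mesenchyme gate and 2.47 ± 3.69 CPM in the endothelia gate (9.37 ± 1.05, adjusted p = 0.00227). Notch1 and Notch4 were lower, at 99.2 ± 24.8 and 9.44 ± 4.50 CPM, against 626 ± 163 and 197 ± 23.6 CPM in the endothelia gate. The ligand Dll4 had 3.72, 0.185, 0.0949 and 0.771 CPM in the mesenchyme sums, against 810.0, 515, 552 and 525 CPM in the endothelia sums (-9.83 ± 0.91, adjusted p = 0.00124), and the ligand Jag2 was lower as well (-7.32 ± 1.17, adjusted p = 0.00776). The ligand Jag1 was higher in the mesenchyme gate, at 354 ± 56.2 CPM, against 171 ± 91.1 CPM in the endothelia gate (1.21 ± 0.31, adjusted p = 0.0419), and its adjusted p was 0.138 without number 1, 0.137 without number 3, 0.129 without number 4 and 0.0708 without the block (range over all alternatives 0.00347 to 0.412). The ligand Dll1 did not pass. The target Heyl was higher (9.38 ± 1.09, adjusted p = 0.00259), as was Hey2 (2.51 ± 0.34, adjusted p = 0.00447), while Hes1 and Hey1 did not pass (0.61 ± 0.22, adjusted p = 0.111, and -0.65 ± 0.39, adjusted p = 0.316). Mfng, a glycosyltransferase that modifies Notch, had 0.0480, 0, 0 and 0.0681 CPM in the mesenchyme sums, against 101, 88.7, 147 and 145 CPM in the endothelia sums (-11.61 ± 0.65, adjusted p = 0.000296).

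Among 25 tested TGF-beta and BMP genes, 6 were higher, 8 lower and 11 did not pass (median -0.27). Without number 1, 6 were higher and 5 lower. The shares of all genes tested, with all 4 numbers, were 9.67% higher and 9.58% lower. Tgfb3, a ligand, had 335, 313, 297 and 248 CPM in the mesenchyme gate, against 7.38, 3.32, 4.06 and 2.46 CPM in the endothelia gate (6.22 ± 0.30, adjusted p = 0.000230). Tgfbr2, the type II receptor, averaged 54.6 ± 26.8 CPM in the mesenchyme gate and 508 ± 130.5 CPM in the endothelia gate (-3.33 ± 0.23, adjusted p = 0.000522). Acvrl1 and Eng, the endothelial type I receptor and its coreceptor, were lower (-4.35 and -4.88 on the log2 scale), and Bmpr1a, a BMP receptor, was higher (5.54 ± 0.49, adjusted p = 0.00102). The BMP targets Id1 and Id3 did not pass, at 698 ± 116 and 1776 ± 240.0 CPM in the mesenchyme gate, against 721 ± 166 and 1543 ± 392 CPM in the endothelia gate.

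Ephrins and their receptors gave 1 higher and 4 lower of 14 genes (median -0.92), against 9.67% and 9.58% of all genes tested, so that the share higher was near that of all genes. Efnb2, the arterial ephrin, and Ephb4, its venous receptor, were both lower in the mesenchyme gate (-2.25 and -3.90 on the log2 scale), as was Efna1 (-4.20 ± 0.32, adjusted p = 0.000631). Epha7 was the 1 higher member, with 31.7, 66.0, 24.6 and 41.4 CPM in the mesenchyme gate, against 0.0248, 0.0873, 0 and 0.0249 CPM in the endothelia gate (10.21 ± 0.78, adjusted p = 0.000650). Epha2 and Epha4 did not pass (-0.47 ± 0.41, adjusted p = 0.502, and -2.12 ± 0.64, adjusted p = 0.0682), and the adjusted p of Epha4 was 0.0494 without number 3 (range over all alternatives 0.00280 to 0.194). Of 20 semaphorin, plexin and guidance genes, 2 were higher and 8 lower (median -1.81), against 9.67% and 9.58% of all genes tested, and 1 was higher without number 2, number 3 or number 4. Slit3, a Roundabout ligand, had 482, 656, 491 and 531 CPM in the mesenchyme sums, against 6.58, 3.80, 29.6 and 15.59 CPM in the endothelia sums (5.67 ± 0.64, adjusted p = 0.00235). The related ligand Slit2 and the Roundabout receptor Robo1 did not pass. Sema6a and Sema3f, repulsive semaphorins, averaged 1.16 ± 0.801 and 14.6 ± 4.30 CPM in the mesenchyme gate, against 160.3 ± 40.2 and 154 ± 21.7 CPM in the endothelia gate. Sema5a and Plxnd1 did not pass (-0.69 ± 0.21, adjusted p = 0.0675, and -0.73 ± 0.22, adjusted p = 0.0666), and the adjusted p of Plxnd1 was 0.0391 without the block (range over all alternatives 0.00756 to 1.00).

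Junction genes had 4 higher and 13 lower of 24 (median -1.72), against 9.67% and 9.58% of all genes tested. Without number 1, 2 were higher, without number 3, 1 was higher and 13 lower, and without number 4, 1 was higher and 12 lower. Emcn, the endothelial sialomucin endomucin, had 152, 174, 186 and 206 CPM in the mesenchyme sums, against 11511, 8167, 7917 and 7829 CPM in the endothelia sums (-5.61 ± 0.24, adjusted p = 0.000158). F11r, the junctional adhesion molecule A, averaged 159 ± 44.5 CPM in the mesenchyme gate and 920.0 ± 67.2 CPM in the endothelia gate (-2.57 ± 0.19, adjusted p = 0.000579). Gja4, connexin 37 of gap junctions, and Jam3 did not pass, with Gja4 at 497, 538, 441 and 421 CPM in the mesenchyme gate, against 341, 439, 809.7 and 368 CPM in the endothelia gate, where the gates overlapped (0.05 ± 0.27, adjusted p = 0.932, and 0.20 ± 0.25, adjusted p = 0.635).

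The list of endothelial transcription factors also holds the receptor Heg1. Of its 21 tested genes, 17 were lower in the mesenchyme gate, against 9.58% of all genes tested, and 1 was higher (median -5.45). The higher one was Nr2f2 (COUP-TFII), a factor of veins that mesenchyme also uses, at 269 ± 32.3 CPM in the mesenchyme gate and 17.8 ± 13.5 CPM in the endothelia gate (4.35 ± 0.60, adjusted p = 0.00460). Sox7 had 0.1199, 0.0925, 0.0949 and 0.0681 CPM in the mesenchyme sums, against 255, 234, 143 and 219 CPM in the endothelia sums (-11.12 ± 0.32, adjusted p = 0.000111). Bcl6b, a transcriptional repressor, averaged 0.101 ± 0.0802 CPM in the mesenchyme gate and 205 ± 37.3 CPM in the endothelia gate, and Heg1, the receptor of the cavernous malformation pathway, 21.6 ± 5.16 CPM in the mesenchyme gate and 455 ± 90.6 CPM in the endothelia gate. The ETS factor Erg and the SoxF factor Sox18 were lower too (-8.38 and -10.57 on the log2 scale), while Ets2 and Mecom did not pass (-0.52 ± 0.21, adjusted p = 0.137, and -0.65 ± 0.46, adjusted p = 0.402).

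The ETS letters ACAGGAAG were searched on both strands of the same upstream windows. They occurred before 302 of 10146 tested genes (2.98%), before 13 of 625 genes at least 4-fold higher (2.08%) and before 30 of 551 at least 4-fold lower (5.44%). None of the 12 genes with a promoter in the list of endothelial transcription factors held the letters. The stretch before Emcn, at chr3:137340828-137341077 (plus strand), is shown because it is the 1 junction gene among those 30. Its match, in capitals, lies 174 bases before the start at which the window ends and on the opposite strand to the gene. Here too the window runs past the gene's first base in the RefSeq positions, chr3:137341062.
Emcn upstream: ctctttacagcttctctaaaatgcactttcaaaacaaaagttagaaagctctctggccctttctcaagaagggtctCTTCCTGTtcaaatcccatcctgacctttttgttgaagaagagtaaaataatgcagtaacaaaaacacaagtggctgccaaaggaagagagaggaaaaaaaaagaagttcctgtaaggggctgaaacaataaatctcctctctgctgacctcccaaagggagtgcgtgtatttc

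Mesenchymal transcription factors gave 12 higher and 5 lower of 22 tested (median 1.56), against 9.67% and 9.58% of all genes tested. Without number 1, 8 were higher and 2 lower. Tbx2, a T-box factor, averaged 273 ± 64.6 CPM in the mesenchyme gate and 28.0 ± 8.66 CPM in the endothelia gate (3.31 ± 0.33, adjusted p = 0.00159), and Mef2c, a factor of muscle and endothelium, 951 ± 164 CPM in the mesenchyme gate and 284 ± 42.3 CPM in the endothelia gate (1.74 ± 0.18, adjusted p = 0.00180). The homeobox genes Meis1 and Meis2 took opposite sides. Meis1 had 197, 169, 128 and 178 CPM in the mesenchyme sums, against 21.9, 18.3, 29.1 and 42.3 CPM in the endothelia sums (2.65 ± 0.30, adjusted p = 0.00234), and Meis2 had 138, 89.6, 122 and 144 CPM in the mesenchyme sums, against 831, 612, 813 and 761 CPM in the endothelia sums (-2.62 ± 0.17, adjusted p = 0.000385). Ebf1 and Zeb2 did not pass (0.62 ± 0.21, adjusted p = 0.0988, and 0.39 ± 0.32, adjusted p = 0.466).

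Hox genes, which record position along the body axis, had 10 higher and 1 lower of 29 tested (median 2.19). Of all genes tested, 9.67% were higher and 9.58% lower, so the share of Hox genes lower was below that of all genes. The Hox counts were 6 and 1 without number 1, 5 and 1 without number 4, and 2 lower without number 2. The higher genes lay in the Hoxa, Hoxc and Hoxd clusters. Hoxd11, which with Hoxa11 patterns the kidney mesenchyme, had 21.1, 23.7, 13.6 and 15.2 CPM in the mesenchyme sums, against 0.174, 0.0436, 0 and 0.0249 CPM in the endothelia sums (8.58 ± 1.19, adjusted p = 0.00481). Hoxa11 had 14.5, 21.6, 13.4 and 20.8 CPM in the mesenchyme sums and 3 reads in all in the endothelia gate, a ratio of 778 (95% counting interval 266 to 3774), with an adjusted p of 0.00523 and of 0.0599 without number 4 (range over all alternatives 1.84e-14 to 0.0599). Hoxd9 and Hoxc4 were higher (3.34 ± 0.52, adjusted p = 0.00691, and 7.65 ± 1.20, adjusted p = 0.00724). The lower gene was Hoxb5, with 3.33, 11.8, 6.36 and 10.1 CPM in the mesenchyme gate, against 40.4, 57.0, 39.3 and 51.3 CPM in the endothelia gate (-2.70 ± 0.43, adjusted p = 0.00773). Hoxa9 and Hoxb2 did not pass (-0.29 ± 0.33, adjusted p = 0.602, and 0.95 ± 0.51, adjusted p = 0.262), and the adjusted p of Hoxb2 was 0.0469 without number 3 (range over all alternatives 0.0469 to 0.812).

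Of 15 tested imprinted genes, 3 were higher and 3 lower (median -0.06), against 9.67% and 9.58% of all genes tested, and without number 1 or number 4, 1 was higher and 2 lower. Mest, a hydrolase of the paternal allele, had 0.599, 0.139, 2.37 and 7.58 CPM in the mesenchyme sums, against 712, 762, 482 and 447 CPM in the endothelia sums (-8.73 ± 1.24, adjusted p = 0.00518). Meg3, a long noncoding RNA, was lower (-4.67 ± 0.57, adjusted p = 0.00310), and Ndn, necdin, and Peg3, a zinc finger factor, were higher (2.18 ± 0.27, adjusted p = 0.00328, and 2.67 ± 0.54, adjusted p = 0.0183), with an adjusted p for Peg3 of 0.0666 without number 1 and 0.0875 without number 4 (range over all alternatives 3.60e-06 to 0.0875). Gnas and Impact did not pass (-0.21 ± 0.16, adjusted p = 0.424, and 0.08 ± 0.19, adjusted p = 0.819).

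Interstitial matrix genes had 10 higher and 2 lower of 26 tested (median 4.24), against 9.67% and 9.58% of all genes tested. The share lower was no larger than that of all genes. Without number 1, 8 matrix genes were higher and none lower, and 1 was lower without number 2 or number 4. Sparcl1, a matricellular protein, had 5998, 6683, 4978 and 5600.1 CPM in the mesenchyme sums, against 374, 422, 734.7 and 491 CPM in the endothelia sums (3.57 ± 0.27, adjusted p = 0.000620). Aspn and Bgn, leucine-rich proteoglycans, averaged 126 ± 49.3 and 2028 ± 192 CPM in the mesenchyme gate, against 0.1003 ± 0.0985 and 334 ± 102.2 CPM in the endothelia gate. Thbs1, thrombospondin 1, averaged 151 ± 54.9 CPM in the mesenchyme gate and 0.694 ± 0.953 CPM in the endothelia gate (8.58 ± 1.05, adjusted p = 0.00310). The fibroblast collagen Col1a2 was uneven between mice, with 189.7, 178, 468 and 415 CPM in the mesenchyme sums, against 7.504, 0.131, 1.12 and 5.44 CPM in the endothelia sums (7.19 ± 1.05, adjusted p = 0.00574). Of the other collagens in this list, Col6a1, Col6a2, Col6a3 and Col14a1 were higher, while Col1a1, Col3a1, Col5a1, Col5a2 and Col12a1 did not pass. Dcn, decorin, had 172, 0.833, 726 and 791 CPM in the mesenchyme sums, against 6.26, 3.97, 0.140 and 1.96 CPM in the endothelia sums, with number 2 lowest among the mesenchyme sums (6.47 ± 2.84, adjusted p = 0.176, and adjusted p = 0.0224 without number 2 and 0.0144 without the block (range over all alternatives 0.000282 to 0.458)). Mgp, the matrix Gla protein, and Fbln5, fibulin 5, did not pass (1.25 ± 0.79, adjusted p = 0.337, and -4.06 ± 1.78, adjusted p = 0.175), with an adjusted p for Mgp of 0.00481 without number 2 (range over all alternatives 0.00481 to 0.727).

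Of 20 basement membrane genes, 6 were higher and 3 lower (median 0.32), against 9.67% and 9.58% of all genes tested. The counts were 3 and 1 without number 1 and 5 and 1 without number 4. The collagen IV chains present in every vessel, Col4a1 and Col4a2, did not pass. Col4a1 had 747, 473, 602 and 515 CPM in the mesenchyme gate, against 633, 373, 529 and 557 CPM in the endothelia gate, and the gates overlapped (0.16 ± 0.16, adjusted p = 0.547, and for Col4a2 0.47 ± 0.16, adjusted p = 0.0905). The laminin chains Lama2 and Lamb2 were higher (8.41 ± 1.12, adjusted p = 0.00407, and 1.37 ± 0.21, adjusted p = 0.00609), as was Col18a1, the source of endostatin (1.84 ± 0.20, adjusted p = 0.00192). Nid2, nidogen 2, was lower, with 38.5, 23.5, 21.3 and 21.9 CPM in the mesenchyme gate, against 176, 120.3, 54.8 and 93.8 CPM in the endothelia gate (-2.004 ± 0.27, adjusted p = 0.00406).

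Genes of capillary fatty acid uptake had 2 higher and 6 lower of 14 tested (median -1.49), against 9.67% and 9.58% of all genes tested. Without number 1 or number 4, none was higher and 4 were lower, and without number 3 none was higher and 6 were lower. Gpihbp1, which anchors lipoprotein lipase on capillaries, had 0.216, 0.185, 0 and 0.204 CPM in the mesenchyme sums, against 251, 177, 484 and 246 CPM in the endothelia sums (-10.67 ± 0.75, adjusted p = 0.000520). Fabp4, a fatty acid binding protein, averaged 33.0 ± 12.6 CPM in the mesenchyme gate and 687 ± 254 CPM in the endothelia gate, and Cd36, a fatty acid transporter, 1.26 ± 1.39 CPM in the mesenchyme gate and 329 ± 175 CPM in the endothelia gate. Lpl, the lipase itself, was lower by less (-1.46 ± 0.21, adjusted p = 0.00524). Acsl5 and Pparg did not pass (-1.53 ± 0.48, adjusted p = 0.0757, and -1.01 ± 0.76, adjusted p = 0.424), with an adjusted p of 0.0250 without number 3 and 0.0370 without the block (range over all alternatives 0.00746 to 0.298) for Acsl5 and of 0.0361 without number 2 (range over all alternatives 0.0361 to 0.864) for Pparg.

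Of 17 tested genes of MHC and antigen presentation, 9 were lower in the mesenchyme gate and none higher (median -2.30). Of all genes tested, 9.58% were lower and 9.67% higher. The MHC counts were the same without each number in turn. The lower ones were of class I. B2m, its light chain, had 589.5, 462, 748 and 705 CPM in the mesenchyme sums, against 5334, 5942, 6484 and 6550.4 CPM in the endothelia sums (-3.30 ± 0.17, adjusted p = 0.000254). The heavy chains H2-D1, H2-K1 and H2-T23 were lower, with log2 fold changes of -3.15, -2.59 and -4.02, and their reads may be shared between copies. Class II genes did not pass, with Cd74 at 55.7 ± 45.6 and H2-Ab1 at 35.2 ± 27.4 CPM in the mesenchyme gate, against 57.3 ± 37.2 and 49.6 ± 23.96 CPM in the endothelia gate. Of 11 tested leukocyte adhesion genes, 1 was higher and 6 lower (median -3.66), against 9.67% and 9.58% of all genes tested. The share higher was near that of all genes. Mcam (CD146) was the higher one (2.01 ± 0.18, adjusted p = 0.00114). Icam2 averaged 6.82 ± 12.3 CPM in the mesenchyme gate and 987 ± 69.8 CPM in the endothelia gate, Podxl, which podocytes carry too, 393 ± 403 CPM in the mesenchyme gate and 2859.5 ± 478 CPM in the endothelia gate, and Sele, E-selectin, 0.0348 ± 0.0400 CPM in the mesenchyme gate and 23.98 ± 22.4 CPM in the endothelia gate. Vcam1 and Cd99l2 did not pass (-1.62 ± 1.58, adjusted p = 0.547, and 0.43 ± 0.44, adjusted p = 0.567).

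Differences in nuclear-encoded oxidative phosphorylation were small: 14 of 20 tested genes were higher and none lower, with a median log2 fold change of 0.78. Of all genes tested, 9.67% were higher and 9.58% lower. The subunits of ATP synthase Atp5b, Atp5a1 and Atp5c1 were higher by 1.13, 1.06 and 0.98 on the log2 scale, and the cytochrome oxidase subunit Cox6c by 1.21. Atp5b had 2789, 3133, 3226 and 2818 CPM in the mesenchyme sums, against 1516, 1433, 1430.3 and 1117 CPM in the endothelia sums (1.13 ± 0.15, adjusted p = 0.00400). Sdhb and Ndufv1 did not pass (0.65 ± 0.18, adjusted p = 0.0554, with 0.0495 without off-gate wells (range over all alternatives 0.0104 to 1.00), and 0.64 ± 0.18, adjusted p = 0.0557 for Ndufv1). Without number 1, 3 or 4, 7 genes were higher, and without number 2, 9 were. None passed a test against a 2-fold change.

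Immediate early and stress genes, which digestion can induce, had 5 higher and 4 lower of 19 (median -0.36). Without number 2, 3 were higher and 4 lower, without number 3, 2 and 3, and without number 4, 2 and 2. The shares of all genes tested, with all 4 numbers, were 9.67% higher and 9.58% lower. Fos had 7140.3, 6647, 12331 and 12125 CPM in the mesenchyme sums, against 4169, 1912, 5094 and 4729.6 CPM in the endothelia sums (1.30 ± 0.19, adjusted p = 0.00607). Cyr61, a matricellular target of YAP, was higher (2.50 ± 0.22, adjusted p = 0.00103), and Ier2 and Ier3 were lower (-1.44 ± 0.19, adjusted p = 0.00393, and -2.12 ± 0.25, adjusted p = 0.00269). Dusp1 and Egr1 did not pass (-0.57 ± 0.18, adjusted p = 0.0842, and 0.32 ± 0.25, adjusted p = 0.444). Of 14 tested cell cycle genes none was higher and 1 lower (2 without number 4), a share no larger than the 9.58% of all genes tested. It was the inhibitor Cdkn1a, at 151 ± 42.1 CPM in the mesenchyme gate and 704 ± 223 CPM in the endothelia gate (-2.20 ± 0.33, adjusted p = 0.00591). The cyclins Ccnd2 and Ccnd1 did not pass (0.05 ± 0.18, adjusted p = 0.883, and -0.47 ± 0.18, adjusted p = 0.128).

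Among 18 nuclear receptor and steroid genes, 4 were higher and 1 lower (median 0.26), against 9.67% and 9.58% of all genes tested, with 2 and 1 without number 3 and 1 and none without number 4. Thrb, a thyroid hormone receptor, had 119, 140.2, 63.5 and 102.4 CPM in the mesenchyme sums, against 25.5, 0.567, 2.75 and 5.27 CPM in the endothelia sums (4.56 ± 0.97, adjusted p = 0.0214), and its adjusted p was 0.0769 without number 3 and 0.0842 without number 4 (range over all alternatives 1.30e-08 to 0.0842). Nr3c1, the glucocorticoid receptor, was lower (-1.07 ± 0.26, adjusted p = 0.0336), with an adjusted p of 0.0749 without number 2, 0.0992 without number 3, 0.115 without number 4 and 0.0570 without the block (range over all alternatives 0.00451 to 0.574). Hsd11b1, which regenerates active glucocorticoid, had 0.0959, 2.08, 33.8 and 316 CPM in the mesenchyme sums, against 0.0248, 0, 0.466 and 2.31 CPM in the endothelia sums, with number 4 highest (6.41 ± 0.81, adjusted p = 0.00342, and adjusted p = 0.159 without number 4 and 0.0596 without the block (range over all alternatives 6.99e-10 to 0.159)). Rora and Nr3c2 did not pass (0.51 ± 0.33, adjusted p = 0.358, and -0.47 ± 0.34, adjusted p = 0.403).

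Of 29 tested growth factor and lineage ligands, 5 were higher and 6 lower (median -0.08), against 9.67% and 9.58% of all genes tested. Without number 1 the counts were 3 and 6. Dhh, desert hedgehog, had 0.0719, 0, 0 and 0.0227 CPM in the mesenchyme sums, against 32.3, 69.2, 62.8 and 40.4 CPM in the endothelia sums (-10.56 ± 1.00, adjusted p = 0.00128). Igfbp7 was higher and Igfbp5 lower, both binding proteins of insulin-like growth factor (3.98 ± 0.42, adjusted p = 0.00181, and -1.61 ± 0.17, adjusted p = 0.00171). Igfbp3 and Fgf1 did not pass (-3.99 ± 1.39, adjusted p = 0.101, and -0.53 ± 0.26, adjusted p = 0.224). The ligands of the macrophage receptor Csf1r took opposite sides: Il34 averaged 38.2 ± 18.7 CPM in the mesenchyme gate and 2.37 ± 2.86 CPM in the endothelia gate (5.13 ± 0.96, adjusted p = 0.0137, and adjusted p = 0.0535 without number 1 (range over all alternatives 3.26e-10 to 0.0535)), and Csf1 31.7 ± 12.7 CPM in the mesenchyme gate and 148 ± 47.3 CPM in the endothelia gate (-2.28 ± 0.25, adjusted p = 0.00209). Gdf10, a BMP-like ligand, averaged 311 ± 45.6 CPM in the mesenchyme gate and 1.62 ± 1.75 CPM in the endothelia gate (8.36 ± 0.98, adjusted p = 0.00265).

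**Figure D4:**
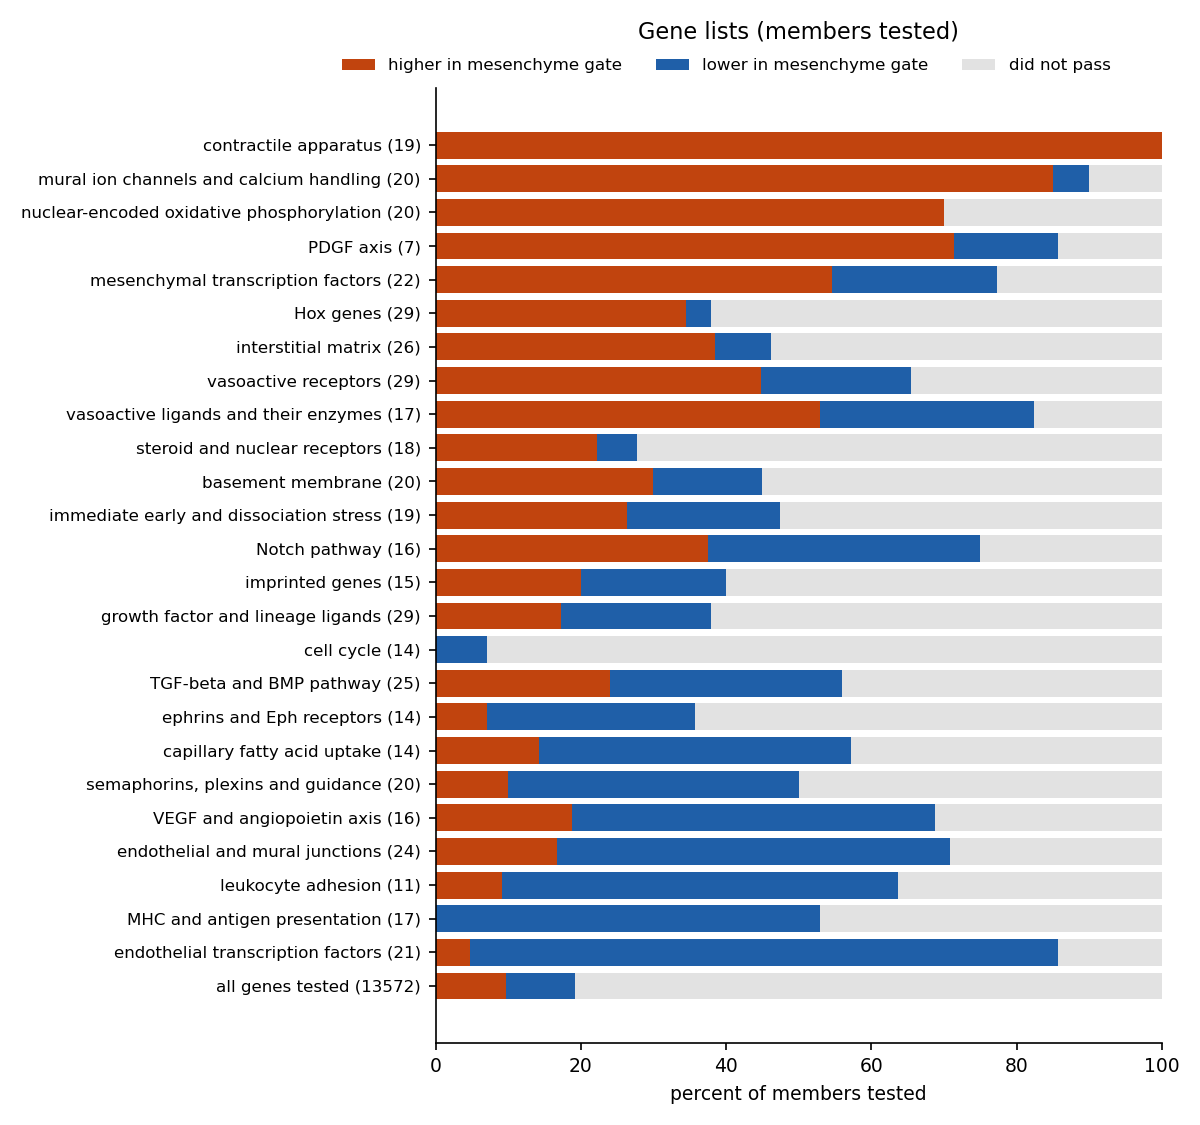
Members of 25 gene lists that were higher in the mesenchyme gate, lower, or did not pass, as a percent of the members tested, with the number tested beside each list. All 19 contractile genes were higher and 17 of 21 genes in the list of endothelial transcription factors lower, against 9.67% and 9.58% of all genes tested.

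Within the mesenchyme gate, markers of mural types shared the same wells. At least 3 markers of a list at 10 CPM were found in 320 of 364 mesenchyme wells for vascular smooth muscle, in 292 for pericytes and in 290 for mesangial cells, against 6, 4 and 2 of 380 endothelia wells. The mesangial list includes Pdgfrb, at 10 CPM in 356 mesenchyme wells, and the smooth muscle list includes Acta2. Both are gate markers, so the counts for these 2 lists are met in part by the gate markers themselves. Rgs5, a pericyte marker, reached 10 CPM in 323 of 364 mesenchyme wells and Cspg4, the NG2 proteoglycan, in 304 of 364, against 13 and 16 endothelia wells, and Notch3 did in 302 mesenchyme wells and 6 endothelia wells. The other 3 markers of the pericyte list were found in far fewer mesenchyme wells: the potassium channel subunits Kcnj8 and Abcc9 in 35 and 48, and Higd1b in 68, against 5, 8 and 1 endothelia wells. The count for pericytes thus rests mainly on Rgs5, Cspg4 and Notch3. Gata3 and Itga8, of mesangial cells, reached it in 210 and 174 mesenchyme wells, against 4 and 7 endothelia wells. Renin was found in 54 of 364 mesenchyme wells and in no endothelia well. Akr1b7, an aldo-keto reductase that renin cells carry, was spread wider, in 251 mesenchyme wells against 14 endothelia wells. Fibroblast markers were rare: 16 mesenchyme wells and 2 endothelia wells had at least 3, and Pdgfra reached 10 CPM in 26 mesenchyme wells and 4 endothelia wells.

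Within the endothelia gate, at least 3 markers were found in 257 of 380 wells for glomerular endothelium, in 112 for arterial endothelium and in 65 for peritubular capillaries, against 117, 1 and 12 of 364 mesenchyme wells. Ehd3, a marker of glomerular endothelium, reached 10 CPM in 278 of 380 endothelia wells, and Plvap, of fenestral diaphragms in peritubular capillaries, in 141 of 380, with both in 80. Ehd3 had 123, 170.2, 92.4 and 128 CPM in the mesenchyme sums, against 5549, 3788, 2183 and 2876 CPM in the endothelia sums. Plvap had 98.4, 26.0, 1.38 and 10.0 CPM in the mesenchyme sums, against 696, 184, 2292 and 2065 CPM in the endothelia sums, so that numbers 3 and 4 were high and number 2 low among the endothelia sums (-5.70 ± 1.74, adjusted p = 0.0692), and its adjusted p was 0.0146 without the block (range over all alternatives 0.000492 to 0.201). The arterial markers Gja5, connexin 40, and Tspan8 reached 10 CPM in 67 and 100 endothelia wells, against 40 and 11 mesenchyme wells. At least 3 of 5 lymphatic markers were found in no well. Ccl21a had no read in either gate and Lyve1 stayed under 1 CPM in every endothelia sum, so the rule rests mainly on Prox1, Flt4 and Mmrn1. Prox1 alone reached 10 CPM in 7 of 380 endothelia wells, and the list summed to 139 to 298 CPM in the endothelia sums (without TMM scaling). For 0 of 380 endothelia wells, counting error alone allows up to 0.789% (3 wells) under this rule, which is not a limit on lymphatic cells. Ehd3 also reached 10 CPM in 115 of 364 mesenchyme wells.

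**Figure D5:**
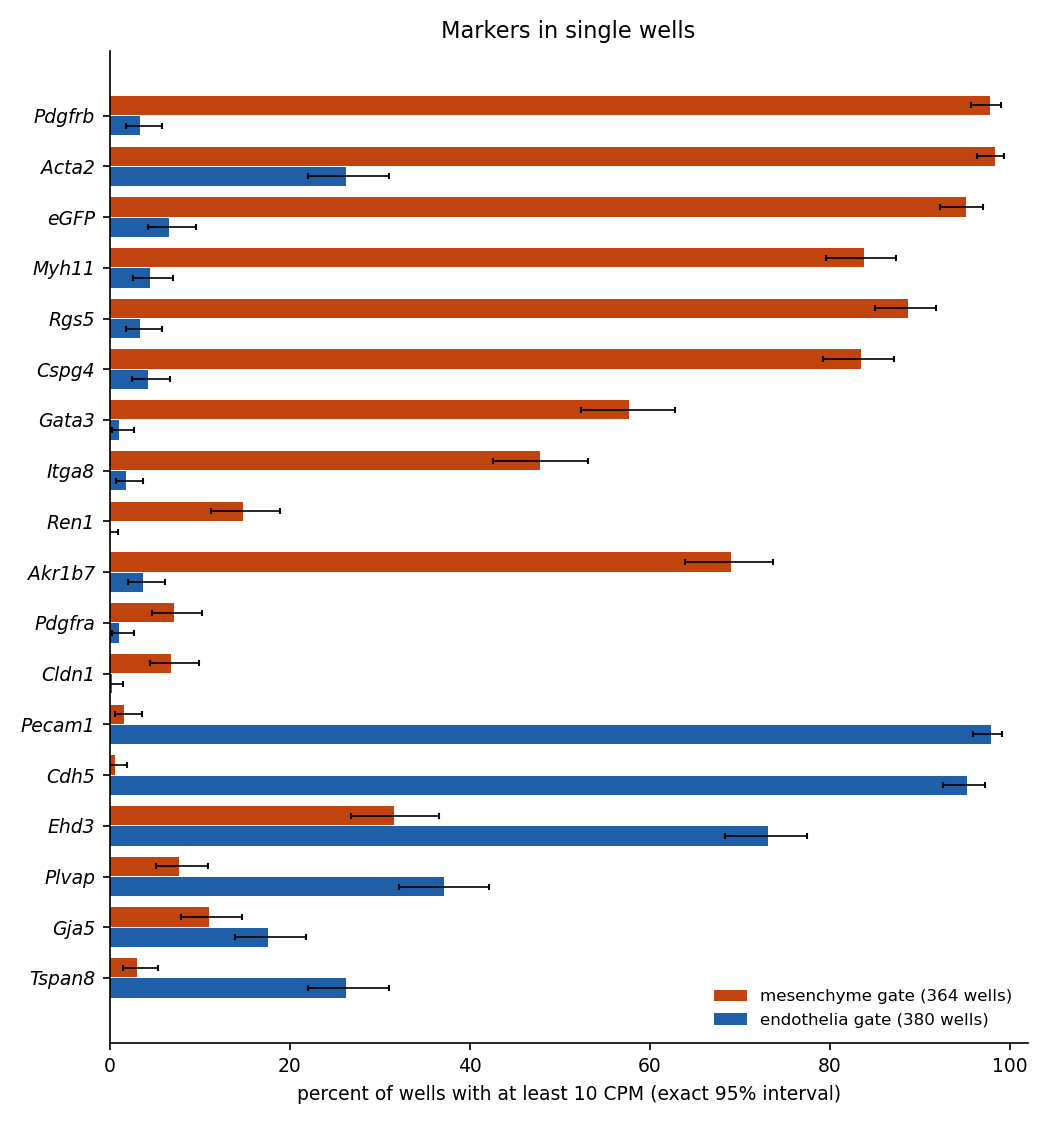
Percent of wells with at least 10 CPM of each marker, mesenchyme gate above and endothelia gate below it, with exact binomial 95% intervals, which cover counting error only. Acta2, Myh11, Rgs5 and Cspg4 were found in most mesenchyme wells and the mesangial marker Itga8 in 174, while Pecam1, Cdh5 and Ehd3 were found in most endothelia wells.

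The gate difference was also followed into obstructed kidneys in a fit of all 24 sums. At day 2 of UUO no gene passed edgeR's test of a gate difference unlike the healthy one (0 of 16116 tested, 875 at an unadjusted p under 0.05, 220 by DESeq2), and at day 10, 3 passed (0.0186%, 1378 at an unadjusted p under 0.05, 584 by DESeq2). At day 10, without any 1 number none passed, and without the wells off their gate 1 did. Trim16 had log2 fold changes of -12.40 in healthy kidneys, -6.72 at day 2 and -5.50 at day 10, a difference at day 10 of 6.90 ± 0.91 (adjusted p = 0.0370). Its mean in the mesenchyme gate was 0.0245, 1.61 and 5.11 CPM in that order, and in the endothelia gate 136.0, 100.6 and 196.7 CPM. Cpne8, a calcium-dependent copine, moved the same way by 3.41 ± 0.44 (adjusted p = 0.0370), with log2 fold changes of -5.77, -4.27 and -2.35. Cdc42ep3, an effector of the small GTPase Cdc42, moved the other way by -2.33 ± 0.32 (adjusted p = 0.0381), with log2 fold changes of 1.27, 0.24 and -1.07. Its mean in the mesenchyme gate was 147.4, 135.1 and 146.8 CPM in the same order, and in the endothelia gate 57.9, 102.8 and 270.1 CPM. Over the alternatives, their adjusted p ranged from 3.75e-07 to 0.328, from 1.00e-09 to 0.390 and from 1.48e-07 to 0.390. Mesenchyme and endothelia gates differed at 3193 genes at day 2 (19.8%) and 3237 at day 10 (20.1%) in this fit.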

How the data were processed

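Read counts per gene and well were deposited by the authors for 6 plates, one table per plate, and they were used as deposited. The submitters' processing notes name STAR and the mm10 build. The counting tool, the gene annotation and the use of strand are not given in the sources used here, so antisense and overlapping genes cannot be told apart. The tables held 24490 gene entries, and the 771 entries that share a symbol were added to give 23998 symbols. The 92 ERCC spike-in sequences stayed out of library sizes and tests.

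Wells with at least 1000 detected genes and 20000 reads on genes were kept, no doublet caller was run on these sorted wells, and counts were summed per number and gate. Kept healthy wells held 33947 to 638549 reads. The 12 wells labelled as controls held 251 to 30393 reads, with a median of 3264. The number is taken to mark the mouse, so that both gates of a number come from 1 animal, and it entered each fit as a block. Deviations from the gate means correlated between gates at 0.0474, 0.105, 0.107 and 0.0542 for the same number across genes, and each number correlated best with itself. P-values measure the spread between these sums.

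The sums were filtered with filterByExpr, scaled by TMM and tested with edgeR 4.0.16 (limma 3.58.1, R 4.3.3) by the quasi-likelihood test, with p-values adjusted over all genes by the Benjamini-Hochberg method and called at 0.05. The SE of a log2 fold change is its size divided by the square root of F. For day 2 and day 10, interactions of gate with day were fitted to all 24 sums, with the mouse as block. The procedure was run on simulated counts with known 2-fold and 4-fold changes. The simulation gave every gene the same spread and held no difference between mice. It therefore does not measure the error rate of the calls made here. A well counted as positive for a gene at 10 CPM, and intervals and floors cover counting error only. Off-gate wells are mesenchyme wells with Pecam1 and Cdh5 at 10 CPM, of which healthy mice had none, and endothelia wells with Pdgfrb at 10 CPM. Where 1 to 3 reads lie behind a gate, the ratio of pooled CPM is given with an exact binomial 95% interval. Medians of lists were unchanged to 2 decimals when genes at 0 were set to a floor of 3 reads. Upstream stretches of 250 bases and gene positions are from RefSeq (GRCm38.p6), and the starts used for them differ for some genes. Tables and figures were made with Python 3.11.15, pandas 2.3.3, scipy 1.17.1 and matplotlib 3.10.9.

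Genes were named by rule: the 4 gate markers, the 10 largest changes on each side among called genes that had 1 sign in all 4 numbers and reached a mean of 5 on the log2 CPM scale, from each of 25 lists up to 4 members of smallest p that passed and up to 2 of highest mean CPM that did not, and for each interaction up to 5 genes a direction, passing over predicted genes and pseudogenes; a few genes that the rule selects are not reported here. The members, the lists and the rule were chosen with earlier results of these data known. eGFP, Myh11, Tagln, Myl9, Vcl, Myocd, Ednra, Edn1, Ptgs2, Gucy1a3, Gucy1b3, Ren1, Calcrl, Ramp1, Ramp2, S1pr1, S1pr3, Dll4, Jag1, Jag2, Notch3, Heyl, Hey2, Tek, Pdgfra, Erg, Sox18, Eng, Gdf10, Il34, Csf1, Hoxb5, Col1a2, Dcn, Orai1, Stim1 and the markers counted in wells were chosen after their values were seen. Alternatives were DESeq2 1.42.0, limma-voom, other scaling and filters, sums per plate, a mean of per-well CPM, stricter wells, no off-gate wells, no block, a 2-fold threshold and each number left out.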

Additional observations from a re-analysis of the deposited data

Results flagged for a closer look

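In 50 of 414 sets of 4 sums, 1 sum stood apart from the other 3 by more than Dixon's 95% limit. For independent sets of normally distributed values, chance alone would do so for about 1 set in 20. The sets here share the same sums and some hold few reads, so 50 of 414 cannot be set against that rate. Where 1 sum held all reads of a gene in its gate, the other 3 were equal and the flag followed by arithmetic. The sums that stood apart are given in TMM-scaled CPM with the range of the other 3.

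Number 2 stood apart most often in the endothelia gate, and always on the high side, for genes of smooth muscle and pericytes. The contractile genes were Acta2 at 624 CPM (others 43.2 to 76.0), Myh11 at 107 CPM (others 0.979 to 3.23), Tagln at 131 CPM (others 4.60 to 9.12) and Myl9 at 344 CPM (others 7.40 to 12.1). Pericyte and mesangial genes were Rgs5 at 61.3 CPM (others 0.280 to 6.68), Notch3 at 7.98 CPM (others 0.187 to 1.02), Heyl at 4.23 CPM (others 0.140 to 0.522) and Gata3 at 8.73 CPM (others 0.0933 to 0.646). Signalling genes were Kcna5 at 2.57 CPM (others 0.0933 to 0.149), Ramp1 at 5.11 CPM (others 0 to 0.124) and S1pr3 at 43.9 CPM (others 0.187 to 1.54). Without the 2 wells of this sum that carry Pdgfrb, it held 4.46 CPM of Tagln, 6.13 CPM of Myl9, 1.36 CPM of Rgs5, 0.394 CPM of Notch3, 0.219 CPM of Heyl and 7.35 CPM of S1pr3, and Ramp1 was at 0 (CPM without TMM scaling).

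In the mesenchyme gate the sum of number 1 stood apart on the high side for endothelial genes: Icam2 at 25.2 CPM (others 0.499 to 0.786), Tek at 40.6 CPM (others 0.237 to 1.67), S1pr1 at 10.2 CPM (others 0.142 to 1.32), Flt1 at 5.27 CPM (others 1.497 to 1.99), Edn1 at 3.57 CPM (others 0 to 0.250) and Sox18 at 3.45 CPM (others 0.0925 to 0.613). Tek reached 10 CPM in 10.8% of the number 1 mesenchyme wells, against 1.64%, 0% and 2.46% of those of numbers 2 to 4. No well of this sum held both Pecam1 and Cdh5 at 10 CPM, and 16 of the 364 mesenchyme wells of all numbers held at least 3 of 10 endothelial markers at that level. Number 1 was also high for Nid2 at 38.5 CPM (others 21.3 to 23.5) and Itga8 at 402 CPM (others 134 to 152), and held the 1 read of Srms in its gate, at 0.0240 CPM (others 0). Number 3 was high for Cdh5 at 0.949 CPM (others 0.136 to 0.240), Kdr at 4.36 CPM (others 0.839 to 1.36) and Tagln at 4471 CPM (others 3064 to 3287), and low for Heg1 at 13.9 CPM (others 23.9 to 24.6) and Gpihbp1 at 0 CPM (others 0.185 to 0.216). Number 2 was high for Pdgfd at 145 CPM (others 65.1 to 76.7) and Pparg at 61.9 CPM (others 15.04 to 18.7). Number 4 was high for Hsd11b1 at 316 CPM (others 0.0959 to 33.8), Fbln5 at 505 CPM (others 0.231 to 39.1), Igfbp3 at 676 CPM (others 3.08 to 80.6), Notch4 at 16.2 CPM (others 6.52 to 7.70) and Jag1 at 438 CPM (others 322 to 334), and low for Acta2 at 21458 CPM (others 23898 to 24256).

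In the endothelia gate number 1 was high for Emcn at 11511 CPM (others 7829 to 8167), Dll4 at 810.0 CPM (others 515 to 552), Jam3 at 287 CPM (others 139 to 162), Adm at 59.9 CPM (others 35.9 to 36.9), Agtr1a at 3.01 CPM (others 0.233 to 0.373) and Pdgfra at 7.80 CPM (others 0.0933 to 1.40), low for Tspan8 at 448 CPM (others 738 to 777.1) and Mecom at 54.8 CPM (others 137 to 144), and held all reads of Ren1, at 0.0745 CPM (others 0). Number 3 was high for Sox18 at 1180.1 CPM (others 793 to 803). Number 4 was high for Notch2 at 37.1 CPM (others 12.9 to 15.9) and Lama2 at 1.62 CPM (others 0 to 0.149), low for Ets2 at 442 CPM (others 561 to 585), and held all endothelia reads of 4 genes: Mrgprh at 0.0249 CPM (others 0), Vstm4 at 0.0746 CPM (others 0), Cldn1 at 0.0746 CPM (others 0) and Hoxa11 at 0.0746 CPM (others 0).

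The gate difference at day 10 of UUO differed from the healthy one, by the test of the interaction, for Trim16 (6.902 on the log2 scale), Cpne8 (3.414) and Cdc42ep3 (-2.335). None of the 3 passed when any 1 number was left out.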

How the results depend on the processing

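No named gene that passed changed direction under an alternative that gave a value, and neither did the differences per well. The 2612 genes called became 4612 with DESeq2 (2404 higher, 2208 lower), of which 2611 were among those called here, and 1509 against a 2-fold change (767 higher, 742 lower). With 3 of the 4 numbers the total was 1546 to 2152, with 742 to 1066 higher and 804 to 1086 lower, and fewer samples were fitted. The mean of per-well CPM called 1998 genes higher. Without the replicate block 2878 genes passed, 2423 of them also with the pairing by number, all in the same direction, and the block changed the calls named beside the genes concerned. Among the 11 other alternatives the total was 2591 to 3756.

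At day 2 of UUO the changed gate differences were 0 with the block, 7 without the replicate block and 220 with DESeq2, and at day 10 they were 3, 26 and 584. At day 10 no gene passed without any 1 number (0 to 0), and 1 passed without off-gate wells, an alternative chosen after seeing the data. The cause of these differences was not tested. Paired by plate, genes per well differed by 541.75 and gene reads per ERCC read by 0.413 on the log2 scale, both in every pair. Numbers 1 and 4 each run over 2 plates, so these 6 pairs come from 4 numbers and are not 6 replicates. The exact sign-flip p of 0.03125 that 6 pairs allow therefore does not replace the p of 0.125 from 4 pairs. Thinned to 100000 reads per well, with 14 mesenchyme and 16 endothelia wells too shallow to keep, the difference was 555 genes. Depth limits the low side of most large changes, where a gate held a few reads in all, so their fold is less certain than their direction.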
